A study of Mus musculus with 6 samples.

Results

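The genes described here are 32 genes of mitosis and the spindle, listed by name, whose levels were compared between BV-2 cells given lipopolysaccharide (LPS) and control BV-2 cells. Of the 32 listed genes, 31 had a row of their own on the array, out of 22180 genes with such a row, and each of the 31 had a single row. A row of its own is a transcript cluster, a group of probes for 1 transcription unit, that is annotated with exactly that gene. The remaining gene, Ccnb1, which encodes cyclin B1, is not analysed here for its level. All 31 lay above 3.09 on the log2 scale, the 95th percentile over 1438 rows of olfactory, vomeronasal and taste receptor genes, which served as a guide to background, so each had a readable signal.

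BV-2 cells are mouse microglia transformed with a recombinant retrovirus (v-raf/v-mic in the labels), a line that divides in culture, unlike most microglia of the adult brain. Of the 6 arrays, 3 held RNA from untreated cells, described as resting, and 3 held RNA from cells given LPS O111:B4, a bacterial cell wall component, at 1 µg/mL for 24 h. All cells were plated for the experiment in medium with less serum than the growth medium. The sources used here do not give the harvest time of the control cells. Whether the replicates numbered 1 to 3 came from separate cultures is not stated in the labels. A p-value here therefore reflects the spread among these 6 arrays only, which may be technical. Of 9 genes known to respond to LPS, 8 rose at adjusted p under 0.05 in limma, a linear model test fitted across all rows, among them Lcn2, an iron-scavenging secreted protein, and the cytokines Il1a and Il6. Markers of microglia and macrophages stood above background for 11 of 12 genes, the exception being Tmem119. Astrocyte and oligodendrocyte markers did so for 0 of 7 and 0 of 6 genes, and neuron and fibroblast or endothelial markers for 1 of 7 each.

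Cells enter mitosis when cyclin A and cyclin B activate the kinase CDK1. Chromosomes then condense, the spindle attaches to them through kinetochores, and the spindle checkpoint holds back the anaphase-promoting complex (APC/C) until attachment is complete. The APC/C and separase next release the sister chromatids, and cytokinesis splits the cell. Most genes for these proteins are transcribed together late in the cycle and are silent in resting cells, so in bulk RNA their level follows the share of dividing cells. In bulk samples such as these, fewer cells in mitosis and less of the RNA per cell cannot be told apart. The shared timing is known to work through promoters that hold a cell cycle genes homology region (CHR, here TTTGAA or TTCGAA), read by the MuvB complexes with B-MYB and FOXM1, and CCAAT boxes, read by NF-Y.

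These elements were looked for in the RefSeq promoter windows of GRCm38.p6, 250 bases before and 50 after each annotated start, on both strands, and TTCGAA, which reads the same on either strand, was counted once. Of the 32 genes, 26 matched a window by symbol, and where a gene had several windows the first listed was used. A CHR was found in 20 of the 26 windows (76.9%), against 19.4% of the 27025 genes of the table. CCAAT was found in 19 (73.1%, against 37.9%), and both elements in 17 (65.4%, against 7.7%). The 100 bases before the start are shown for 6 genes that hold both elements in this stretch, chosen so that both can be seen at once, with CHR and CCAAT matches in capitals on whichever strand they fall (TTCAAA is TTTGAA, and ATTGG is CCAAT, on the other strand).
Cdk1, chr10:69352913-69353012, minus strand: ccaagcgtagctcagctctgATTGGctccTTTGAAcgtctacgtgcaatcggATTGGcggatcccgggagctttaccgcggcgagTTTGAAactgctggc
Cdc20, chr4:118437344-118437443, minus strand: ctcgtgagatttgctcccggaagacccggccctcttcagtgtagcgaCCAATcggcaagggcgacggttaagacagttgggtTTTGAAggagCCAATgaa
Kif11, chr19:37376282-37376381, plus strand: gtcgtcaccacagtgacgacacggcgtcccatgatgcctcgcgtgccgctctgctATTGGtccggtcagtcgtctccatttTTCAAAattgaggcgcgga
Top2a, chr11:99024190-99024289, minus strand: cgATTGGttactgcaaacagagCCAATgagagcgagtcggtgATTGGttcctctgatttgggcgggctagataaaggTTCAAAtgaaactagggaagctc
Ube2c, chr2:164769829-164769928, plus strand: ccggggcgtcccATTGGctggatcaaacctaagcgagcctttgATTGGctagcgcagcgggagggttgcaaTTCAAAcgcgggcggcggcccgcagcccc
Espl1, chr15:102296193-102296292, plus strand: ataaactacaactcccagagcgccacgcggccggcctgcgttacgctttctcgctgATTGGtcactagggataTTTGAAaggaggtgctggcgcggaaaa

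Of these 6 genes, 5 were lowest, among the LPS arrays, in LPS replicate 3, and Espl1 was not. Over all members 26 of 31 were lowest there, so the count is not particular to these 6. The same stretch follows for Ccnb2 and Cenpa, the members with the lowest log2 fold changes.
Ccnb2, chr9:70421555-70421654, minus strand: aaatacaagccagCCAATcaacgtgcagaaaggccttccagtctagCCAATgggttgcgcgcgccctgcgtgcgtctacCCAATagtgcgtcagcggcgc
Cenpa, chr5:30666786-30666885, plus strand: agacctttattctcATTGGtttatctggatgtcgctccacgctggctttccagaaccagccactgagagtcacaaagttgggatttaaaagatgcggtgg
Ccnb2 has CCAAT 87, 54 and 21 bases before the start, and its nearest CHR lies 5 bases after the start, outside the stretch shown. In Cenpa the CHR lies 17 bases after the start. Birc5, Nusap1, Nuf2 and Mad2l1 had neither element in the window, which says only that these letters are not in it. In other members that hold both elements, such as Aurka, Bub1 and Plk1, the CHR match lies after the start. A match is a description of the sequence and not a measured binding site.

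**Figure D1:**
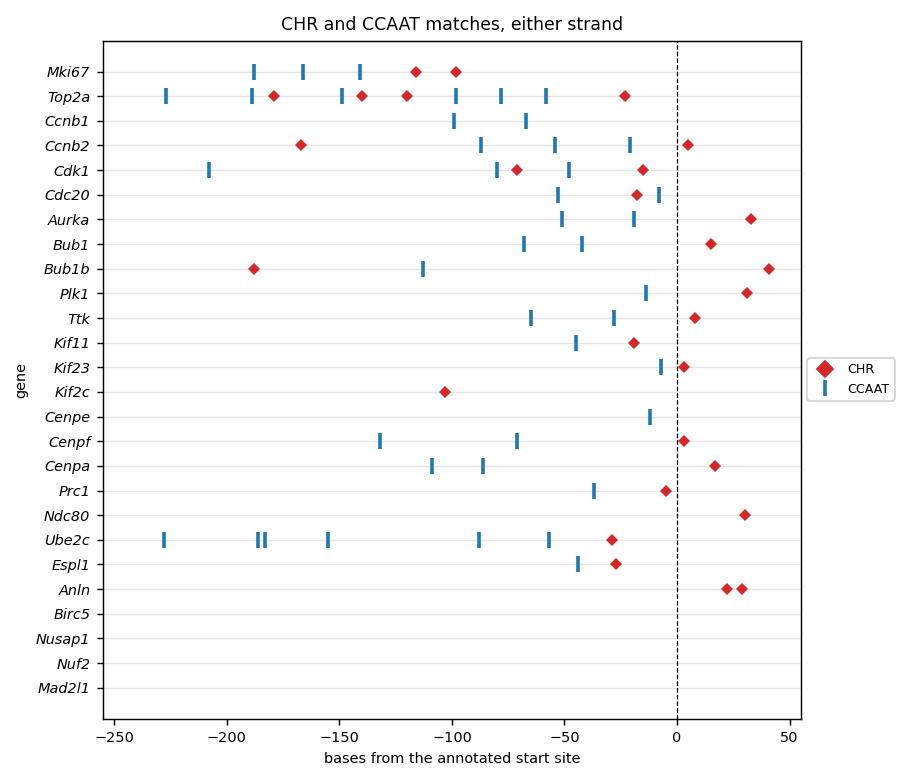
Positions of CHR matches (red diamonds) and CCAAT matches (blue bars) in the promoter windows of 26 mitosis and spindle genes, with bases from the annotated start site on the x axis and 1 gene per line on the y axis. CCAAT matches all lie before the start and CHR matches on either side of it, and 17 of the 26 genes hold both kinds.

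No mitosis or spindle gene passed the test for LPS against control: of 31 members 0 rose, 0 fell and 31 did not pass (limma, adjusted p under 0.05 over all 41345 rows). Over all rows 0.193% were called higher and 0% lower. At an unadjusted p under 0.05, 1 of 31 members was higher (4.98% of all rows and 10.1% of genes above background) and 0 were lower (1.4% and 1.43%). Fold changes were small. Their median was 0.08 on the log2 scale, with 24 of 31 above 0 (55.8% of all rows were), but the median was -0.12 after quantile normalization of the arrays and -0.09 without LPS replicate 2. Genes above background had a median of 0.12, with 67.7% above 0, and a median of -0.02 after quantile normalization. For 29 of the 31 the 95% confidence interval lay wholly between -1 and 1, that is, within 2-fold in either direction, the exceptions being Ccnb2 and Cenpa. The intervals reached a median of 0.49 to either side, before any adjustment for the number of rows.

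**Figure D2:**
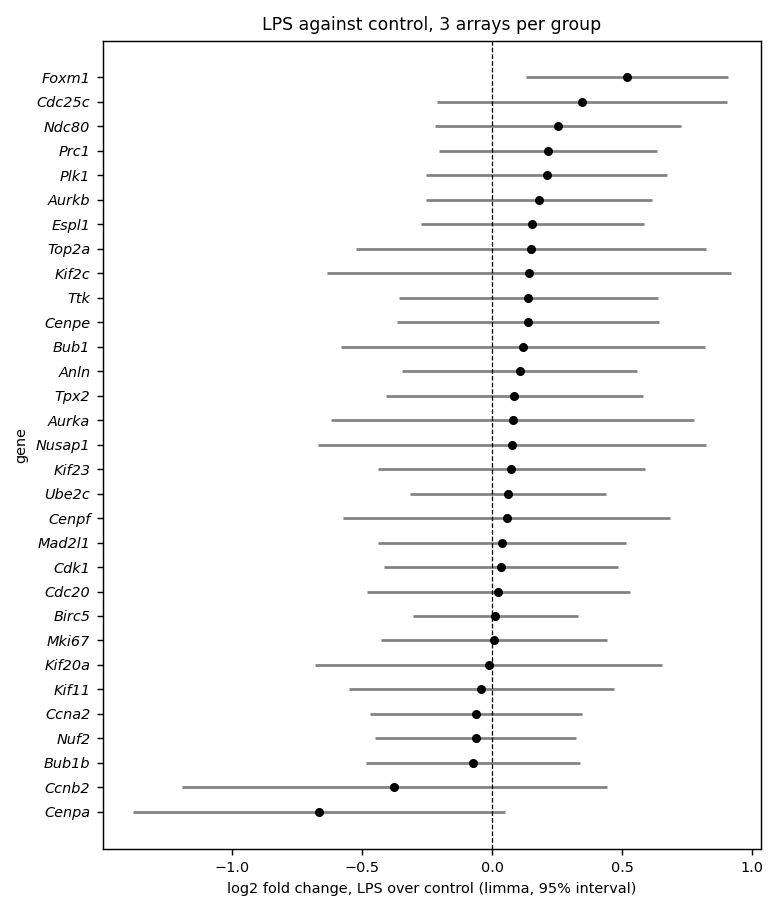
Log2 fold change of LPS over control (x axis) for 31 mitosis and spindle genes (y axis, ordered by fold change), as points with 95% confidence intervals from limma over 3 arrays per group. The points run from -0.67 for Cenpa to 0.52 for Foxm1, and 30 of 31 intervals include 0, Foxm1 being the exception.

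Among the cyclins, their kinase and its activators, Foxm1, the transcription factor of late cell cycle genes, read 4.73, 4.99 and 4.67 in control replicates 1 to 3 and 5.34, 5.48 and 5.13 in LPS replicates 1 to 3. Its LPS values all lay above its control values, the only member of 31 of which this held (7.74% of all rows did so, and 14.2% of genes above background), and 0 of 31 lay wholly below (3.48% of all rows and 1.91% of genes above background). The group means were 4.79 ± 0.17 and 5.31 ± 0.18 (SD, n = 3). They differed by 0.52 on the log2 scale (SE 0.16), and the limma test adjusted over all rows was not passed (adjusted p = 0.56). Cdc25c, the phosphatase that activates CDK1, read 4.13, 4.44 and 4.08 without LPS and 4.67, 4.90 and 4.11 with it. LPS replicates 1 and 2 were above every control and LPS replicate 3 was level with the lower controls, and the log2 fold change was 0.35 (SE 0.23, adjusted p = 0.97 in limma).

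Cdk1 itself read 6.26, 6.38 and 6.27 without LPS and 6.23, 6.70 and 6.09 with it, so that the groups overlapped with a log2 fold change of 0.03 (95% interval -0.42 to 0.49). Ccna2, which encodes cyclin A2, held a narrow range of 8.43 to 8.49 in the controls and read 8.46, 8.62 and 8.09 after LPS. Here too LPS replicate 3 was the lowest of the 6 arrays. Ccnb2, which encodes cyclin B2, differed from these because its control arrays were split: it read 8.88, 7.74 and 8.85 in control replicates 1 to 3 and 8.22, 8.36 and 7.77 after LPS. Its log2 fold change was -0.38 (SE 0.34), and -0.75 without control replicate 2 (SE 0.21, limma adjusted p = 0.36). In that fit 2 members were higher and 2 lower at an unadjusted p under 0.05, against 4.98% and 3.98% of all rows. Of the 10885 genes above background, 898 were higher and 826 lower. Control replicate 2 was the lowest control for Ccnb2, so leaving it out lowers the log2 fold change of Ccnb2 by construction.

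Of the mitotic kinases and the chromosomal passenger protein Birc5 (survivin), 4 of 4 had a log2 fold change above 0, between 0.01 and 0.21. Over all rows 55.8% were above 0, and 67.7% of genes above background. After quantile normalization Aurka, Aurkb and Birc5 were below 0 and only Plk1 kept its sign. Aurka, the kinase of spindle poles, read 7.35, 7.11 and 7.30 without LPS and 7.39, 7.89 and 6.72 with it, with LPS arrays on both sides of all controls. Plk1, a kinase of mitotic entry and spindle assembly, went another way, at 7.16, 7.75 and 7.205 in the controls and 7.48, 7.62 and 7.65 after LPS, and was highest in LPS replicate 3 among the LPS arrays. Birc5 hardly varied in the controls (5.18 to 5.19) and read 5.05, 5.29 and 5.25 after LPS, a log2 fold change of 0.01 (95% interval -0.31 to 0.33). Aurkb, the passenger complex kinase, had a log2 fold change of 0.18 with overlapping groups.

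The spindle checkpoint genes are Bub1, Bub1b, Ttk, which encodes the kinase MPS1, and Mad2l1, an inhibitor of the APC/C, and their log2 fold changes lay between -0.07 and 0.14. Bub1 was close to constant in the controls, at 7.78, 7.79 and 7.86. After LPS it read 8.19, 8.36 and 7.24. LPS replicates 1 and 2 were thus above all controls and LPS replicate 3 below all of them, and the mean difference of 0.12 (SE 0.29, limma adjusted p = 1.00) lies between these. For Mad2l1 the highest control was control replicate 2 at 7.30, with the other controls at 6.73 and 6.83 and all LPS values between 6.87 and 7.21.

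At the kinetochore and centromere, Cenpa, which encodes the histone H3 variant that marks centromeres, had the lowest log2 fold change of the 31 members. It read 7.13, 6.19 and 7.18 in control replicates 1 to 3 and 6.09, 6.47 and 5.94 after LPS. Control replicate 2 fell among the LPS arrays, so the groups overlapped. The means were 6.83 ± 0.56 and 6.17 ± 0.27 (SD, n = 3). The difference was -0.67 on the log2 scale (SE 0.30, 95% interval -1.38 to 0.05), with a limma adjusted p = 0.83. Without control replicate 2 the log2 fold change was -0.99 (unadjusted p = 0.0026, adjusted p = 0.20), which did not pass either. Ndc80, a subunit of the complex that binds microtubules, was higher in LPS replicates 1 and 2 (8.36 and 8.24) than in any control (7.67, 7.98 and 7.94), and LPS replicate 3 read 7.76. Its partner Nuf2 had a log2 fold change of -0.06, Cenpe, a kinetochore motor, 0.14 and Cenpf, a large kinetochore protein, 0.06.

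The spindle motors and microtubule-associated proteins had log2 fold changes between -0.04 and 0.22. Among the LPS arrays, 7 of 7 were lowest in LPS replicate 3, as were 26 of all 31 members and 31.3% of genes above background. Kif2c, a kinesin that takes microtubules apart at their ends, read 6.93, 6.53 and 6.74 in the controls and 7.08, 7.40 and 6.15 after LPS. The gap of 1.09 log2 units between LPS replicate 3 and the mean of the other LPS arrays was the widest of the 31 members. Kif11, the kinesin that pushes spindle poles apart, read 7.59, 7.68 and 7.71 in the controls and 7.63, 8.005 and 7.22 after LPS. Kif20a and Kif23, kinesins of the central spindle, had log2 fold changes of -0.01 and 0.07, Nusap1 and Tpx2, which stabilise and nucleate spindle microtubules, 0.08 and 0.09, and the antiparallel bundler Prc1 0.22.

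Of the genes of anaphase and exit, Cdc20, the activator of the APC/C, read 7.73, 7.46 and 7.56 in the controls and 7.69, 7.93 and 7.21 after LPS. The log2 fold changes of Cdc20, Ube2c (the ubiquitin-conjugating enzyme of the APC/C), Espl1 (separase) and Anln (anillin, a scaffold of the cleavage furrow) lay between 0.02 and 0.15. Mki67 encodes the proliferation antigen Ki-67, which coats mitotic chromosomes. It read 8.37, 8.91 and 8.71 in the controls and 8.51, 8.79 and 8.71 after LPS, a log2 fold change of 0.01 with a 95% interval of -0.43 to 0.44. Top2a, the topoisomerase that untangles sister chromatids, read 7.60, 7.61 and 7.60 in the controls, the narrowest control spread of the 31 (SD 0.006), and 7.90, 8.24 and 7.12 after LPS. Its log2 fold change was 0.15 (SE 0.28), with LPS arrays well to either side of the controls.

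**Figure D3:**
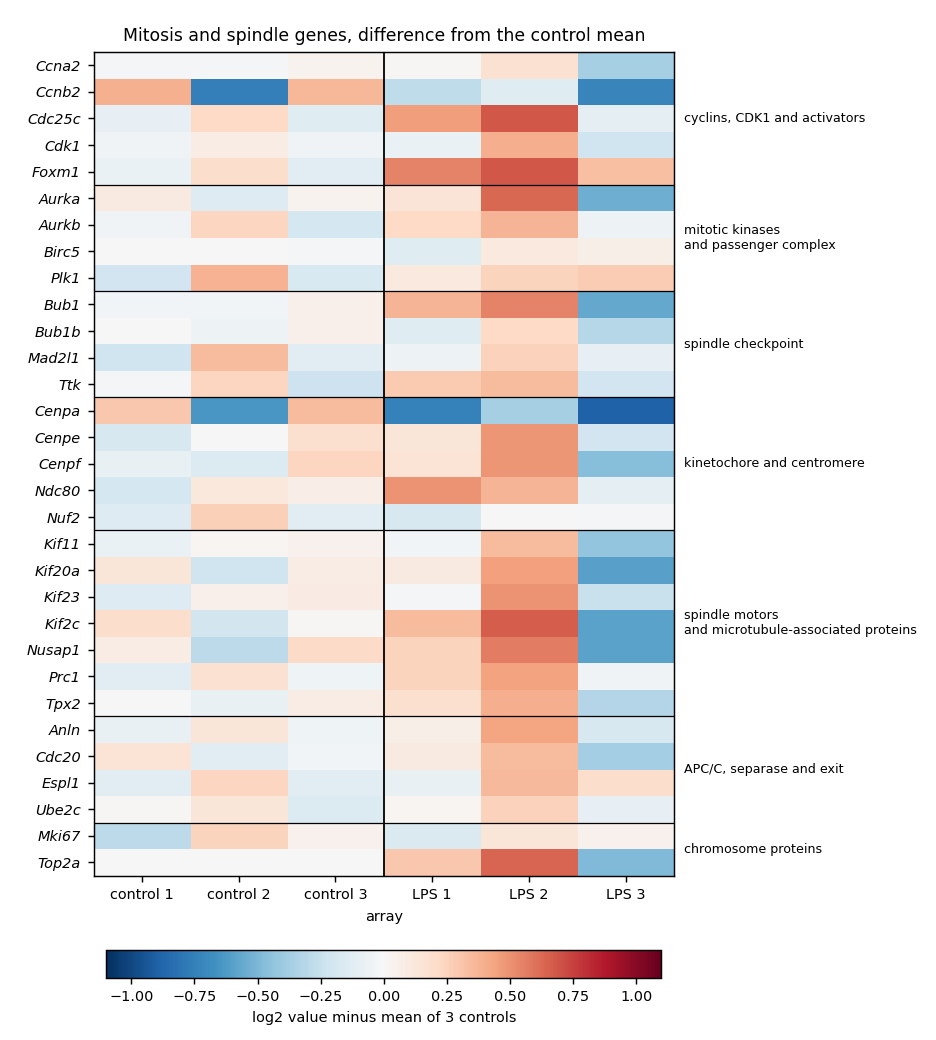
Log2 value of each of 31 mitosis and spindle genes (rows, grouped by role) in each of 6 arrays (columns), as the difference from the mean of the 3 controls, red for higher and blue for lower. Most genes are red in LPS replicate 2 and blue in LPS replicate 3, and Ccnb2 and Cenpa are blue in control replicate 2.

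The LPS arrays therefore did not form one level for these genes, and LPS replicate 3 is given apart, as 1 array and with no test. It was the lowest of the LPS arrays for 26 of 31 members, against 32.1% of all rows and 31.3% of genes above background. It lay below all controls for 17 of 31 (17.6% of all rows and 8.17% of genes above background). After quantile normalization this held for 25 of 31 members and for 3569 of the 10885 genes above background, so that share depends on the scaling. In LPS replicate 3 the members had a median difference of -0.22 from the control mean, and in the mean of LPS replicates 1 and 2 a median difference of 0.25. Genes above background had medians of 0.17 and 0.09. After quantile normalization these medians were -0.53 and 0.087 for the members, and -0.087 and 0.014 for genes above background. The median gap between LPS replicate 3 and the mean of the other LPS arrays was -0.48 over the members, with a range of -1.09 to 0.10, against 0.08 over genes above background. After quantile normalization the gap was -0.61 for the members and -0.0996 for genes above background, and after median centring -0.57 and -0.0075, so the sign of the second turned and that of the first did not.

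LPS replicates 1 and 2 both lay above all controls for 11 of 31 members (13.6% of all rows and 21.2% of genes above background). The 11 were Top2a, Cdc25c, Aurka, Bub1, Ttk, Kif2c, Nusap1, Tpx2, Prc1, Ndc80 and Foxm1. After quantile normalization this held for 4 of 31 members and for 2265 of the 10885 genes above background, so the count for the members depends on the scaling. LPS replicates 1 and 2 differed from each other too, with median differences from the control mean of 0.10 and 0.38. Of the 5 members that were not lowest in LPS replicate 3, Mki67, Birc5, Nuf2 and Espl1 lay between the other LPS arrays there, and Plk1 was highest. In a fit without LPS replicate 3, 0 of 31 members passed (0.198% of all rows did), and 6 were higher and 0 lower at an unadjusted p under 0.05 (4.82% and 2.75% of all rows). Of the 10885 genes above background, 1010 were higher and 361 lower at that threshold. The 6 members were Foxm1, Cdc25c, Bub1, Top2a, Kif2c and Ndc80, with log2 fold changes of 0.43 for Ndc80 to 0.61 for Foxm1 and adjusted p of 0.44 to 0.65. LPS replicate 3 was the lowest LPS array for each of these 6, so leaving it out raises their LPS mean by construction. The count of 6 is therefore no separate support for a rise. The gap had a median of -0.48 (range -1.03 to 0.10) over the 17 members with both promoter elements and of -0.47 (range -1.09 to 0.08) over the 8 others with a window and a row. The difference between these was not tested.

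**Figure D4:**
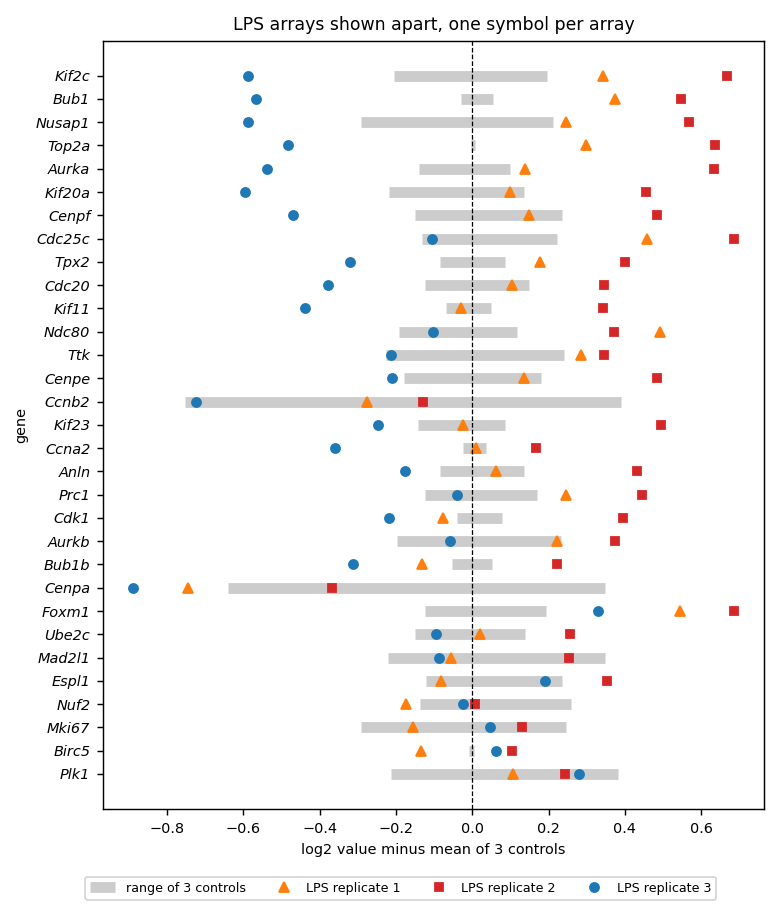
Log2 value minus the mean of 3 controls (x axis) for each member (y axis), with the range of the 3 controls as a grey bar and each LPS array as its own symbol. LPS replicate 3 (blue circles) lies left of the other LPS arrays for 26 of 31 genes and left of the control range for 17.

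Other values moved with this split of the LPS arrays. The summed level of 12 microglia and macrophage markers, as the log2 of the sum of linear values, ran from 12.45 to 12.54 in the controls, read 12.14 and 12.29 in LPS replicates 1 and 2, and 12.89 in LPS replicate 3. Among these markers the lipid receptor Trem2 was 1.58 and the signalling adaptor Fcer1g 1.00 higher in LPS replicate 3 than in the mean of the other LPS arrays, and 9 of 12 were highest there among the LPS arrays. That array was the highest LPS array for 15885 of all 41345 rows and for 4918 of the 10885 genes above background. LPS replicate 3 also had the highest upper quartile of the 6 arrays (5.27, with the others between 4.85 and 5.11). The part of these differences in the values of mitosis genes was not tested. Summed levels of the markers of astrocytes, neurons, oligodendrocytes and fibroblasts or endothelium stayed between 5.02 and 5.63 in the 6 arrays, and LPS replicate 3 lay within the range of the controls for each of these lists. At most 1 gene of each of these lists stood above background, so the sums mostly add background values and could vary little.

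Control replicate 2 also stood apart from the other controls over the whole table, being the lowest control in 50.6% of all rows and the highest in 25.4%. Of the 10885 genes above background, 7761 were lowest and 1729 highest there among the controls. For mitosis and spindle genes the order was turned, with 11 of 31 lowest and 16 highest in that array, and a median difference of 0.03 from the mean of the other controls, against -0.36 over genes above background. Ccnb2 and Cenpa were 1.13 and 0.96 lower there, while Plk1 and Mad2l1 were 0.57 and 0.52 higher. Across the 31 members, the deviation of control replicate 2 from the other controls and that of LPS replicate 3 from the other LPS arrays had a Pearson's r of 0.47 and a Spearman's rho of 0.61, and over 10885 genes above background these were 0.37 and 0.36. Without Cenpa and Ccnb2, which were singled out after their values were seen, r was 0.74 and rho 0.73 over 29 members. This is a description across genes of the same 6 arrays, and genes are not independent replicates. In the fit on the 4 arrays other than control replicate 2 and LPS replicate 3, 0 of 31 members passed (0.53% of all rows did). At an unadjusted p under 0.05 in that fit, 4 members were higher, Foxm1 (0.71), Cdc25c (0.68), Ndc80 (0.49) and Bub1 (0.45), and Cenpa (-0.88) and Ccnb2 (-0.58) were lower, against 5.47% and 5.73% of all rows. Of the 10885 genes above background, 965 were higher and 1097 lower. LPS replicate 3 was the lowest LPS array for those 4 members, and control replicate 2 the lowest control for Cenpa and Ccnb2. Leaving these arrays out shifts the values by construction, so the counts are no separate support for a change.

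Of 73 further genes of mitosis with a row, out of 78 listed, 0 passed in either direction, against 0.193% of all rows. At an unadjusted p under 0.05, 2 were higher and 0 lower (4.98% and 1.4% of all rows, 10.1% and 1.43% of genes above background). Those 2 were Fzr1, the APC/C activator of late mitosis (log2 fold change 0.47, SE 0.17, limma adjusted p = 0.66), and the kinetochore gene Zwint (0.61, SE 0.25, adjusted p = 0.78). Without control replicate 2 the value for Zwint was 0.36, with an unadjusted limma p of 0.11. LPS replicate 3 was the lowest LPS array for 52 of the 73 (32.1% of all rows and 31.3% of genes above background), with a median gap of -0.40 and a range of -1.29 to 0.47. Their median log2 fold change was 0.17, with 53 above 0 (55.8% of all rows and 67.7% of genes above background were). After quantile normalization that median was -0.03. In the fit without control replicate 2 and LPS replicate 3, 24 of the 73 had an unadjusted p under 0.05 and lay higher and 1 lay lower (5.47% and 5.73% of all rows), and again 0 passed over all rows. Of the 10885 genes above background, 965 lay higher and 1097 lower at that threshold. LPS replicate 3 was the lowest LPS array for most of the 73, so leaving it out raises their LPS mean by construction. The count of 24 is therefore no separate support for a rise.

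Among 34 of 36 listed genes of DNA replication, which act in the preceding S phase, 0 passed in either direction, with a median log2 fold change of 0.05. After quantile normalization that median was -0.12. Over all rows 0.193% passed. LPS replicate 3 was the lowest LPS array for 17 of 34, against 32.1% of all rows and 31.3% of genes above background. Mcm10, an initiation factor, had 0.45 (SE 0.18, adjusted p = 0.76) and Mcm7, a subunit of the replicative helicase, -0.32 (SE 0.16, adjusted p = 0.87). The gap of LPS replicate 3 from the other LPS arrays had a median of -0.12 for these genes, against -0.48 for the mitosis and spindle members. Whether these gaps differ was not tested, as they rest on 1 array.

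**Figure D5:**
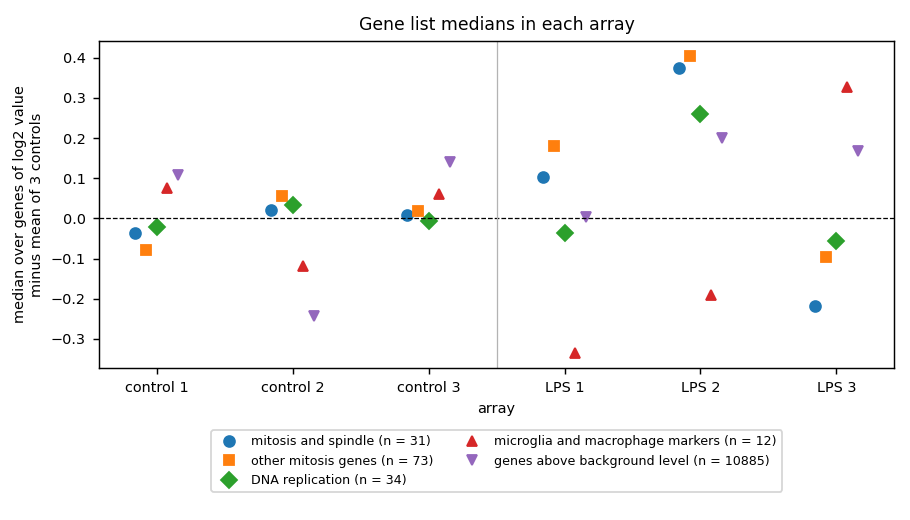
Median over the genes of a list of the log2 value minus the mean of 3 controls (y axis) in each of 6 arrays (x axis), for mitosis and spindle genes, other mitosis genes, DNA replication genes, microglia and macrophage markers, and all genes above background. The mitosis lists have their highest medians in LPS replicate 2 (0.38 and 0.41) and their lowest in LPS replicate 3 (-0.22 and -0.10), where the microglia markers are highest (0.33).

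Upstream of mitosis, 0 of 8 G1 cyclins, kinases and Myc, 0 of 8 CDK inhibitors and 0 of 22 genes of the E2F, RB and MuvB regulators passed, with median log2 fold changes of -0.15, -0.02 and 0.08, the last of which was -0.08 after quantile normalization. At an unadjusted p under 0.05 Myc alone was higher among the genes of these 3 lists, and 0 were lower. At that threshold 4.98% of all rows were higher and 1.4% lower, and 10.1% and 1.43% of genes above background. At adjusted p under 0.05, 0.193% of all rows passed. Myc, a driver of cell growth, read 3.05, 3.21 and 3.40 without LPS and 4.10, 4.60 and 5.94 in LPS replicates 1 to 3. All its LPS values lay above all controls, and the log2 fold change was 1.66 (SE 0.45, limma adjusted p = 0.45). Its highest value was in LPS replicate 3, the LPS array in which most mitosis genes were lowest. That array was also the highest LPS array for 4918 of the 10885 genes above background. The control values of Myc lay close to the background guide of 3.09, with control replicate 1 below it, so the size of this change is uncertain. Ccnd1, which encodes cyclin D1, had -0.34 (SE 0.20, adjusted p = 0.93) and Cdkn2b, an inhibitor of CDK4 and CDK6, 0.50 (SE 0.27, adjusted p = 0.90). Without LPS replicate 3 the value for Cdkn2b was 0.23. That of Ccnd1 was -0.52 without control replicate 2 and -0.18 without control replicate 3. Cdkn1c, another CDK inhibitor, was below the background guide in both groups, with means of 2.73 and 2.46.

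Cdkn1a, which encodes the CDK inhibitor p21 that p53 induces, read 8.95, 6.32 and 8.95 in control replicates 1 to 3 and 8.19, 8.25 and 8.23 after LPS. Control replicate 2 was far below all other arrays, and the log2 fold change of 0.15 (SE 0.69) became -0.73 without that array. The LPS arrays lay close to each other, so Cdkn1a did not follow the split of the LPS arrays seen for the mitosis genes. Cdkn1b, which encodes the inhibitor p27, had a log2 fold change of -0.15 (SE 0.22), and -0.36 without control replicate 2. Mybl2, which encodes B-MYB, read 7.02, 7.22 and 7.11 in the controls and 6.64, 6.996 and 7.09 after LPS, which gave -0.21 (SE 0.17, limma adjusted p = 0.99). The E2F partner Tfdp2 had -0.47 (SE 0.21, adjusted p = 0.83), and Lin54, the MuvB subunit that binds the CHR, 0.36 (SE 0.16, adjusted p = 0.84).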

How the data were processed

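The deposited table holds log2 expression values for 41345 transcript clusters on 6 arrays, made by the authors. The submitters' processing notes name Affymetrix Expression Console as the tool. Its version, background correction, normalization and summarization are not given in the sources used here. The log2 scale was read from the values (0.84 to 11.97). For arrays, their number limits the precision of each value.

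Rows were named from a table of platform annotation (23521 rows with 1 symbol, 1814 with several, 16010 with none), and the row with the highest mean stood for a gene. LPS was compared with control with lmFit and eBayes of limma 3.58.1 (R 4.3.3, no trend, no filter), with Benjamini-Hochberg adjustment over all rows and a threshold of 0.05. The fit was tested on simulated data with independent noise in each row and no array standing apart. It was therefore not tested for arrays such as control replicate 2 and LPS replicate 3. SE is limma's moderated standard error. Background is the 95th percentile of mean values of receptor rows, and genes above it number 10885.

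The members, the gene lists, the naming rule (all members, called list genes or the 2 with the lowest p, and genes fixed by name) and the alternatives were chosen with earlier results of these data known. Alternatives were quantile normalization, median centring, other sets of rows, an intensity trend, array weights, a replicate block, an unmoderated fit and arrays left out. The labels do not say whether replicate numbers pair the arrays, and the main fit treated them as unpaired.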

Additional observations from a re-analysis of the deposited data

How the results depend on the processing

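Under each of the 17 alternatives 0 of 31 members passed, the lowest adjusted p being 0.18. The log2 fold change kept its sign in every alternative for 7 members: Foxm1, Cdc25c, Ndc80, Prc1, Plk1, Ccnb2 and Cenpa. The other 24, with log2 fold changes between -0.07 and 0.18, changed sign in at least 1. After quantile normalization the log2 fold changes that turned were those of Mki67 (-0.16), Top2a (-0.045), Cdk1 (-0.19), Cdc20 (-0.17), Aurka (-0.12), Aurkb (-0.036), Bub1 (-0.0698), Birc5 (-0.16), Ttk (-0.071), Kif23 (-0.12), Kif2c (-0.0664), Cenpe (-0.061), Cenpf (-0.15), Nusap1 (-0.13), Tpx2 (-0.11), Mad2l1 (-0.18), Ube2c (-0.15), Espl1 (-0.051), Anln (-0.11) and Cdkn1a (-0.026), the last outside the members. Median centring turned Mki67 (-0.0004), and array weights turned Ccna2 (0.0026), Kif11 (0.084), Kif20a (0.059), Nuf2 (0.032) and Cdkn1a (-0.37). Without 1 array, or without control replicate 2 and LPS replicate 3, those that turned ran from -0.14 to 0.13 for Mki67, -0.094 to 0.47 for Top2a, -0.18 to 0.088 for Ccna2, -0.15 to 0.20 for Cdk1, -0.14 to 0.22 for Cdc20, -0.20 to 0.39 for Aurka, -0.095 to 0.46 for Bub1, -0.22 to 0.045 for Bub1b, -0.036 to 0.084 for Birc5, -0.23 to 0.17 for Kif11 and -0.25 to 0.28 for Kif20a. The others ran from -0.14 to 0.26 for Kif23, -0.12 to 0.51 for Kif2c, -0.037 to 0.31 for Cenpe, -0.16 to 0.32 for Cenpf, -0.17 to 0.41 for Nusap1, -0.072 to 0.29 for Tpx2, -0.13 to 0.065 for Nuf2, -0.074 to 0.27 for Mad2l1, -0.037 to 0.21 for Ube2c, -0.058 to 0.31 for Anln, -0.73 to 0.59 for Cdkn1a and -0.36 to 0.019 for Cdkn1b. The cause was not tested.

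Medians that moved by more than the spread between arrays were those of other mitosis genes (-0.032 after quantile normalization) and DNA replication genes (-0.12 after quantile normalization, and -0.083 to 0.098 with 1 array left out, and 0.14 without control replicate 2 and LPS replicate 3). Members with LPS replicates 1 and 2 above all controls numbered 4 after quantile normalization, an alternative chosen after the values were seen. With the replicate number as a block, 0 of 31 members passed (lowest adjusted p = 0.80). Of the p53 targets, 0 passed with the block or in the unmoderated fit, and 0 to 1 with 1 array left out. Same-numbered arrays had correlations of their deviations from the group means of 0.07, -0.26 and -0.22. With 3 arrays per group, and control replicate 2 and LPS replicate 3 standing apart, these cannot decide whether the numbers mark shared cultures or batches.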

Other observations

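Of 17 targets of the tumour suppressor p53 with a row, out of 20 listed, 1 rose and 0 fell after LPS, and 16 did not pass. Over all rows 0.193% were called higher and 0% lower, and 63 of the 10885 genes above background were called higher. The one that rose was the death receptor Fas, which read 2.99, 2.76 and 3.00 in control replicates 1 to 3 and 4.94, 5.53 and 5.48 in LPS replicates 1 to 3, which is 2.40 higher on the log2 scale (SE 0.20, adjusted p = 0.012 in limma). Its control values lay below the background guide of 3.09. Fas no longer passed with the replicate number as a block, in the unmoderated fit, without control replicate 1, without control replicate 3 or without LPS replicate 2. Its log2 fold change was 2.29 to 2.59 with 1 array left out, and is 2.40 by construction in the block and unmoderated fits, so the lost calls came with little change in the size. In control replicate 2, 16 of these 17 genes were the lowest of the controls (50.6% of all rows were, and 7761 of 10885 genes above background), with a median of -0.82 from the mean of the other controls, where genes above background had -0.36. This array is also the control in which Cdkn1a, Ccnb2 and Cenpa were lowest. Cdkn1a is itself among the 17.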
